A study of Homo sapiens with 16 samples.

Results

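The 80 cytosolic ribosomal protein genes on chromosomes 1 to 22 were described in a ChIP-seq experiment on histone H3 dimethylated at lysine 9 (H3K9me2). They were chosen by name alone. The rule takes autosomal genes whose symbols are RPL or RPS and a number, with at most an A or L and a further digit after it. It also takes RPLP0, RPLP1, RPLP2 and RPSA, and it leaves out longer symbols such as RPL36AL and those of pseudogenes. The genes chosen make up 80 of the 68324 genes in the table of transcription start sites (TSS) and 80 of the 58786 autosomal ones. Of these, 30 code for proteins of the small subunit, 40 for proteins of the large subunit, 3 for proteins of the ribosomal stalk, and 7 are paralogs (RPL3L, RPL7L1, RPL10L, RPL22L1, RPL26L1, RPL39L and RPS27L). The X-linked RPL10, RPL36A and RPL39 fall outside the rule. Each gene was measured as the sum of reads over its distinct windows, each 2000 bp wide and centred on an annotated start, and the 80 genes held 663 such windows.

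The cells were BJ-5ta, a human foreskin fibroblast line immortalized with telomerase. Wild-type cells were compared with ΔLEO1 cells, a single clone in which CRISPR/Cas9 was used to remove sequence between the first exons of LEO1, which codes for a subunit of the RNA polymerase II-associated PAF1 complex. Both genotypes were either grown in 10% serum, where they proliferate, or held for 10 days in 0.1% serum to bring them into quiescence. Each of the 4 combinations had ChIP and input libraries A and B, and input is the same kind of chromatin sequenced without antibody. The labels name the antibody only as H3, while the study names H3K9me2.

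One ChIP library, ΔLEO1 in 10% serum replicate A, held 50 reads over all distinct windows and 0 over the ribosomal protein genes, and it was left out throughout. The other 7 ChIP libraries held 1895572 to 3266061 reads and the 8 inputs 2844483 to 7947289. The ΔLEO1 10% serum ChIP group is therefore 1 library, and tests that use it assume that it varied as the other groups did. Nothing in the labels says that A and B came from separate cultures, so p-values measure the spread between these libraries, which may be technical. Because the mutant is 1 clone, effects of the deletion and of the clone cannot be told apart. The LEO1 start windows held 4.98 to 6.94 normalised read counts (CPM, reads scaled to a common library total) per window in the 4 wild-type inputs and 3.67 to 5.22 in the 4 ΔLEO1 inputs. How much of the deletion these windows cover was not determined, so they do not check the genotype, and reads from chromatin do not measure the expression that would identify the cells as fibroblasts.

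Ribosomal proteins join ribosomal RNA to form the small subunit, which decodes the mRNA, and the large subunit, which forms peptide bonds. The stalk proteins on the large subunit recruit the translation factors. Their genes are among the most strongly transcribed in growing cells, and most of their mRNAs begin with a C followed by a run of pyrimidines, the 5′ terminal oligopyrimidine (TOP) tract, which ties their translation to nutrient and growth signals. H3K9me2 is written mainly by the methyltransferases EHMT1 and EHMT2 and marks silent chromatin.

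RefSeq sequences around the gene start (build GRCh38.p14) were matched for 63 of the 80 genes, and 9 are printed because the results below turn on the genes. Each run covers 45 bases before the start and the first 15 bases of the transcript, written 5′ to 3′ on the coding strand, with capitals marking the longest run of a C followed by at least 4 bases that are each C or T among those that begin within 10 bp of the start. Runs that begin farther away, and shorter ones, stay in lower case. The first group are genes with little ChIP signal against input: RPLP2 (chr11:809922-809981, + strand), RPL28 (chr19:55385887-55385946, +), RPS25 (chr11:119018329-119018388, −), RPS21 (chr20:62387058-62387117, +) and RPLP0 (chr12:120201097-120201156, −). The second group are genes at or above input: RPS27 (chr1:153990717-153990776, +), RPL22 (chr1:6199581-6199640, −), RPL26L1 (chr5:172958684-172958743, +) and RPL10L (chr14:46651767-46651826, −).
RPLP2: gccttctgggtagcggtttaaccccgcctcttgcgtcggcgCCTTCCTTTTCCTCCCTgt
RPL28: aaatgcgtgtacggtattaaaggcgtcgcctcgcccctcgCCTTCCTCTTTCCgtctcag
RPS25: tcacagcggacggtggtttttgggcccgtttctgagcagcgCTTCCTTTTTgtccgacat
RPS21: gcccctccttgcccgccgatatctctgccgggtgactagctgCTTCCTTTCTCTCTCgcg
RPLP0: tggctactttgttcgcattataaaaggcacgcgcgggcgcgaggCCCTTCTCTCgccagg
RPS27: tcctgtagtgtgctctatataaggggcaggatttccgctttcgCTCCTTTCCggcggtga
RPL22: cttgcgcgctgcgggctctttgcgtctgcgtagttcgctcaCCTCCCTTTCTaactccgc
RPL26L1: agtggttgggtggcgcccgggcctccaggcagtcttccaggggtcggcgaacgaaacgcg
RPL10L: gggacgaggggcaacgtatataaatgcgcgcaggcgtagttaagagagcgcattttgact

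A tract of this kind, read on the coding strand only and beginning within 10 bp of the start, was found in 52 of the 58 matched genes other than paralogs (89.7%). It was found in 1 of the 5 matched paralogs, RPL22L1, and in 33.3% of all 27326 promoters searched in the same way. The 6 others without one were RPL6, RPL13, RPL15, RPL17, RPL27 and RPS29. Only the RefSeq start was searched. For RPL6, RPL13, RPL15, RPL17 and RPS29 it is not a start with the most listed transcripts. Whether a tract begins at the other starts of these genes was not searched. The letters TATAA within 50 bp upstream on the coding strand were found in 6 of the 58 (10.3%), RPLP0 and RPS27 among them, against 5.12% of all promoters. These matches describe letters in a window and are not evidence of a bound factor. The tract did not separate genes with low from genes with high ChIP signal, since RPS27 and RPL22 carry it as RPLP2 does.

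H3K9me2 ChIP reads were lower than input reads at nearly all ribosomal protein genes. Over all groups, 70 of the 79 genes that passed the filter on low counts were called lower in ChIP than in input and 3 were called higher, where a call is an adjusted p under 0.05. Among all 57638 genes tested, 33.8% were called lower and 39.3% higher. The median log2 ratio of ChIP over input was −1.43 for the ribosomal protein genes and 0.13 for all genes. All genes here means every tested gene entry with a listed start. The 18042 of them with a RefSeq promoter had a median of −0.50. In 52 of the 80 genes the highest of the 7 ChIP libraries lay below the lowest of the 8 inputs. The share of all genes with such a separation was not counted, so this number does not set the ribosomal protein genes apart. Because the windows of a gene overlap, a fragment can be counted in several of them. With only non-overlapping windows (128 in all), 69 of 77 genes were lower and 3 higher, and the median was −1.20.

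The small-subunit genes RPS18 and RPS9 gave almost no reads. RPS18 had 0 reads in every library and did not pass the filter. RPS9 had 0 to 1 distinct reads in a ChIP library and 0 to 3 in an input, counted once in its single non-overlapping window, and its fold is not given. Both are also listed on alternate contigs, and the 18953 windows on such contigs held 0 reads in every library. Whether this bears on their low counts was not tested.

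The quartiles of the 79 log2 ratios were −2.08 and −0.87, against −0.71 and 0.64 for all genes. In order of the ratio alone, the genes close to the 5 lowest, which are described below with the subunits, included RPL35 (−3.09 ± 0.26), RPL18 (−3.07 ± 0.27), RPL10A (−3.002 ± 0.23) and RPS19 (−2.93 ± 0.23), the last the gene most often mutated in Diamond-Blackfan anaemia. The genes called lower by the least were RPS3A (−0.42 ± 0.15), RPL6 (−0.43 ± 0.12), RPL14 (−0.45 ± 0.12) and RPL36 (−0.58 ± 0.13). RPL5 (−1.48 ± 0.12) and RPL11 (−1.17 ± 0.14), which bind MDM2 as a complex with 5S ribosomal RNA when ribosome assembly fails, lay near the middle.

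**Figure D1:**
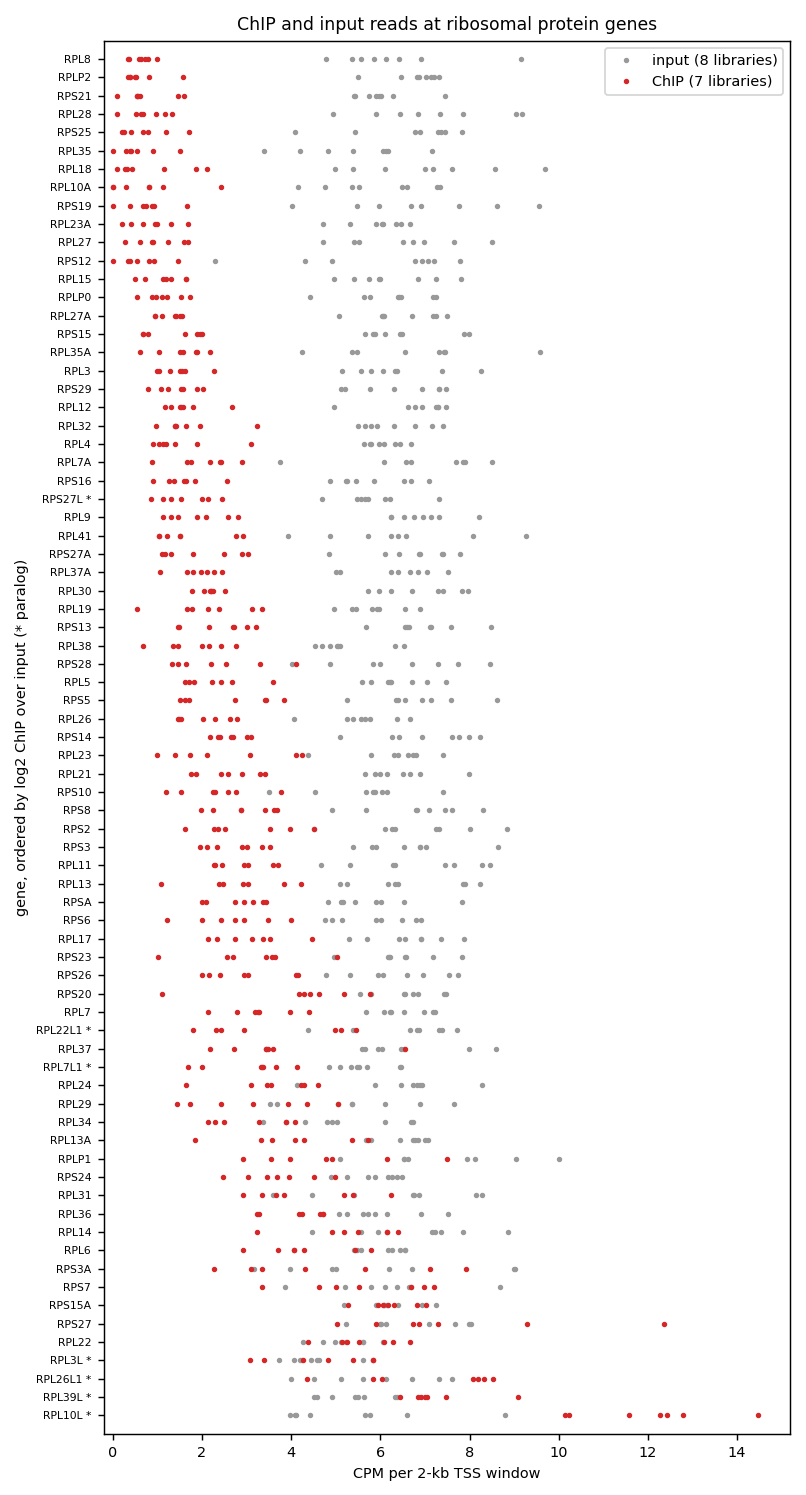
Points are CPM per 2-kb TSS window in each of 7 ChIP libraries (red) and 8 input libraries (grey) for 75 ribosomal protein genes, ordered by log2 ChIP over input, with paralogs starred and 5 genes not shown, RPS9 and RPS18 among them. The red points lie left of the grey points for most genes, overlap them for genes such as RPS7 and RPS27, and lie to the right for RPL10L at the bottom.

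The stalk genes were all lower in ChIP, to different extents. RPLP2, which codes for a protein of the flexible stalk, gave 0.349 and 0.378 CPM per window in wild-type ChIP in 10% serum and 0.806 and 0.518 in 0.1% serum. In ΔLEO1 ChIP it gave 1.58 in 10% serum and 0.375 and 0.502 in 0.1% serum. The 8 inputs lay between 5.49 and 7.31, above all ChIP libraries. Its log2 ratio was −3.28 ± 0.15 (SE, adjusted p = 2.5e-14), in the lowest 0.323% of all genes tested. RPLP0, which anchors the stalk to the ribosome, ranged from 0.546 to 1.73 in ChIP around a median of 1.11 and from 4.43 to 7.26 in input around 6.41. Its log2 ratio was −2.37 ± 0.14 (adjusted p = 2.8e-12). RPLP1, the partner of RPLP2, was much closer to input. Its ChIP values of 2.92 to 7.49 (median 4.77) overlapped the inputs at 5.10 to 10.0 (median 7.28), and its log2 ratio was −0.72 ± 0.16 (adjusted p = 0.00036).

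Small-subunit genes were lower in 25 of 29 tested, with a median log2 ratio of −1.24. RPS21 and RPS25 had the lowest ratios of those with usable reads. RPS21 ranged from 0.0973 to 1.60 in ChIP (median 0.563) and from 5.42 to 7.45 in input (median 5.93), a log2 ratio of −3.25 ± 0.22 (adjusted p = 1.4e-11). RPS25 ranged from 0.205 to 1.70 (median 0.682) against 4.09 to 7.83 (median 7.09), a log2 ratio of −3.10 ± 0.18 (adjusted p = 1.5e-12). In neither gene did ChIP and input overlap. RPSA, a small-subunit protein first described as a laminin receptor precursor, and RPS6, the target of S6 kinase, were lower by less. RPSA gave 2.001 to 3.44 CPM per window in ChIP (median 2.95) and 4.82 to 7.82 in input (median 5.67), and its log2 ratio was −1.12 ± 0.12 (adjusted p = 2.6e-08). RPS6 gave 1.21 to 3.99 (median 2.73) and 4.76 to 6.90 (median 5.95), with −1.11 ± 0.17 (adjusted p = 4.0e-06). At both genes the ChIP and input libraries were also fully apart. Some calls depended on the choice of windows. Lower calls numbered 24 of 27 tested with non-overlapping windows and 23 of 27 with 1 window per gene. RPS2, named after its values were seen, had a log2 ratio of −1.23 over all windows and of 0.27 over non-overlapping windows (adjusted p = 0.094).

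The small-subunit genes not called were RPS7, RPS15A and RPS27, beside RPS9. RPS27 had the widest spread of these in ChIP, with 12.4 and 7.29 CPM per window in wild-type cells in 10% serum, 6.86 and 9.29 in 0.1% serum, 5.03 in ΔLEO1 cells in 10% serum, and 6.73 and 5.90 in 0.1% serum. Its inputs ran from 5.22 to 8.04. RPS15A gave 5.27 to 7.03 in ChIP and 5.18 to 7.25 in input. RPS7 gave 3.35 to 7.20 and 3.86 to 8.68. Their log2 ratios were 0.06 ± 0.16 for RPS27, 0.02 ± 0.11 for RPS15A and −0.17 ± 0.15 for RPS7, and ChIP and input overlapped at all 3. RPS7 was called lower with non-overlapping windows (−0.30, adjusted p = 0.036).

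Large-subunit genes were lower in 39 of 40, with a median log2 ratio of −1.61, and in 37 of 40 with 1 window per gene. RPL8, a protein next to the peptidyl transferase centre, had the lowest ratio of all 79 genes. It ranged from 0.337 to 0.982 CPM per window in ChIP (median 0.638) and from 4.79 to 9.16 in input (median 5.99), a log2 ratio of −3.36 ± 0.17 (adjusted p = 1.8e-13). RPL28 ranged from 0.0961 to 1.32 (median 0.684) against 4.93 to 9.17 (median 7.09), a log2 ratio of −3.11 ± 0.20 (adjusted p = 7.5e-12). At both genes every ChIP library lay several-fold below every input library. RPL22, which binds ribosomal RNA and the EBER RNAs of Epstein-Barr virus, was the one large-subunit gene not called. Its ChIP values of 4.37 to 6.67 (median 5.51) overlapped its inputs, 4.27 to 6.07 (median 5.17), and its log2 ratio was 0.09 ± 0.12. Its 7 windows spread over 9836 bp of alternative starts, each listed for 1 transcript. With 1 window per gene, here the one with the smallest coordinate, the log2 ratio was −0.38 (adjusted p = 0.042).

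The paralogs did not form 1 pattern, with 3 lower, 3 higher and RPL3L not called. RPS27L, a p53-responsive paralog of RPS27, gave 0.864 to 2.45 CPM per window in ChIP and 4.69 to 7.31 in input, a log2 ratio of −1.87 ± 0.18 (adjusted p = 2.6e-09). RPL22L1 gave 1.796 to 5.45 against 4.38 to 7.73 (−0.96 ± 0.18, adjusted p = 4.1e-05), and RPL7L1 1.70 to 4.14 against 4.85 to 6.45 (−0.86 ± 0.15, adjusted p = 1.5e-05). These 3 genes thus lay below input as most ribosomal protein genes did. RPL10L, an intronless, testis-specific copy of RPL10, was the highest of all 79 genes. Its 7 ChIP libraries gave 11.6 and 12.8 in wild-type cells in 10% serum, 10.1 and 12.4 in 0.1% serum, 10.2 in ΔLEO1 cells in 10% serum, and 12.3 and 14.5 in 0.1% serum. Its inputs gave 3.97 to 8.79, below all ChIP libraries. The log2 ratio was 1.10 ± 0.16 (adjusted p = 1.9e-06), at percentile 95.0 of all genes tested. It has 1 window, with 21 to 45 ChIP reads in a library.

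RPL39L, a paralog known from male germ cells, also had all ChIP libraries (6.45 to 9.08) above all inputs (4.52 to 6.36). Its log2 ratio was 0.41 ± 0.13 (adjusted p = 0.0078) over 3 windows on 41424 bp, and −0.02 with 1 window per gene. RPL26L1 gave 4.36 to 8.52 in ChIP and 4.00 to 7.60 in input, which overlap, with a log2 ratio of 0.30 ± 0.13 (adjusted p = 0.035). In DESeq2 the ratios were 0.32 for RPL39L and 0.21 for RPL26L1 and neither was called. The call for RPL26L1 was also lost without any 1 of 8 libraries, namely wild-type ChIP in 10% serum A or B or in 0.1% serum A, ΔLEO1 ChIP in 0.1% serum A, wild-type input in 10% serum A or in 0.1% serum B, and ΔLEO1 input B in either serum. RPL3L, the form of RPL3 made in heart and skeletal muscle, gave 3.08 to 5.84 against 3.72 to 5.60. Its log2 ratio was 0.11 ± 0.15, but −0.78 (adjusted p = 0.00027) with 1 window per gene. Library sizes taken from the peak regions instead turned the ratios of all 4 negative, since they shift the median of all genes from 0.13 to −1.42. Relative to that median, the ribosomal protein genes lay 1.56 log2 units lower with the scaling used here and 1.65 lower with the peak regions (differences of −1.56 and −1.65).

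ChIP lay below input at every distance from a reference start. This was the start listed for most transcripts of a gene or, on a tie, the one with the smallest coordinate. For genes other than paralogs, 335 windows of 70 genes were centred within 0.1 kb of it. They held 2.64 ± 0.22 CPM per window in ChIP (SD over 7 libraries) and 6.42 ± 0.49 in input (SD over 8), a log2 ratio of −1.28. Windows at alternative starts 0.1 to 1 kb downstream gave −1.71 (100 windows, 41 genes), and those 1 to 3 kb downstream −1.06 (51 windows, 27 genes). Windows 0.1 to 1 kb upstream gave −1.56 (49 windows, 19 genes). From 6 genes each, windows 1 to 3 kb upstream gave −1.74 (23 windows) and those over 3 kb upstream −0.75 (19 windows), and windows over 3 kb downstream gave −1.08 (30 windows, 18 genes). The reference start is not the promoter in every gene, since the RefSeq starts of RPS14, RPS16 and RPL21 lie in the bin 1 to 3 kb upstream. Neighbouring bins hold different genes and overlapping windows, so they are a description of level and not a profile along 1 gene.

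The low ChIP signal was deeper than in the surroundings of most of these genes. Windows of other genes centred 3 to 100 kb away were summed for the 76 genes that had any. The ribosomal protein gene had the lower log2 ratio in 64 and the higher one in 12, with medians of −1.41 for the genes and −0.57 for their surroundings and a median difference of −0.83. RPS12 gave the widest gap, −3.22 at the gene and 0.09 in 26 windows of 7 other genes. RPL27A gave −2.35 at the gene and 0.22 around it. At the opposite end, RPS27 gave 0.17 in surroundings at −1.42 and RPL3L 0.07 in surroundings at −1.66. RPS12 and RPL27A thus lay below input in surroundings slightly above it, though the ratios of surroundings carry no error. RPS12 rests on 1 window with 0 to 3 ChIP reads in a library, and its ratio from the fit was −2.51 ± 0.26. RPS27 and RPL3L were not called apart from input over all windows, so they lie on neither side of it. Across the 76 genes the ratios of gene and surroundings had a Spearman coefficient of 0.17 and a Pearson coefficient of 0.19, as a description over points that share libraries.

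**Figure D2:**
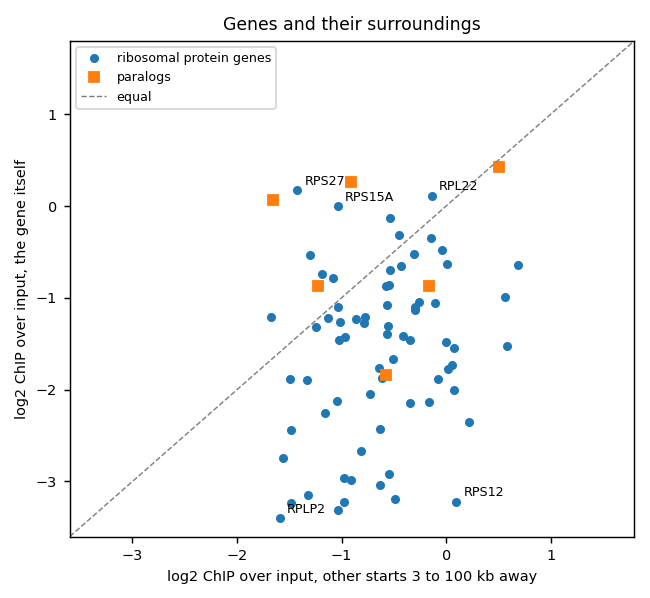
Each point is 1 of 76 genes, with the log2 ratio of ChIP over input in windows of other genes 3 to 100 kb away on the horizontal axis and the ratio of the gene itself on the vertical axis. Of these, 64 points lie below the dashed line of equality, and RPS27, RPS15A and RPL22 are labelled above it.

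Base composition moved with the ratio as well. GC content of the 300-base promoter had a Spearman coefficient of −0.22 with the log2 ratio across the 62 matched and tested ribosomal protein genes and of −0.36 across the 18042 genes with a promoter and a test. The promoters of the 58 matched genes other than paralogs had a median GC of 59.0% and 24 CpG dinucleotides, against 58.3% and 14 for all promoters. Where promoter GC lay between 53.7% and 62.9%, the middle of their range, 28 of them had a median log2 ratio of −1.27 and 4458 other genes −0.55. What part base composition has in the ratio was not tested.

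Other genes of the translation machinery lay at similar levels. All 8 ribosomal protein genes outside the rule were called lower, with a median log2 ratio of −1.79, among them FAU (−2.09 ± 0.21), which codes for a ribosomal protein fused to a ubiquitin-like protein, and RACK1 (−1.43 ± 0.10), a scaffold on the small subunit. Of the translation factors, 34 of 34 tested were lower, with a median of −1.46 and a range from −3.43 at EIF1 to −0.41 at EIF3M. EEF1A1, the factor that brings aminoacyl-tRNA to the ribosome, stood at −1.02 ± 0.10. Of the genes for ribosome assembly, 34 of 34 tested were lower, with a median of −1.48, among them NCL (nucleolin, −2.14 ± 0.15) and NPM1 (nucleophosmin, −1.47 ± 0.13). The genes for mitochondrial ribosomal proteins had 64 lower and 1 higher of 75 tested, and a median of −1.29. As a contrast of genes that fibroblasts are not known to use, the class I olfactory receptor genes of chromosome 11 had 3 lower and 42 higher of 56 tested, and a median of 0.69. All these counts stand beside 33.8% lower and 39.3% higher among all genes.

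**Figure D3:**
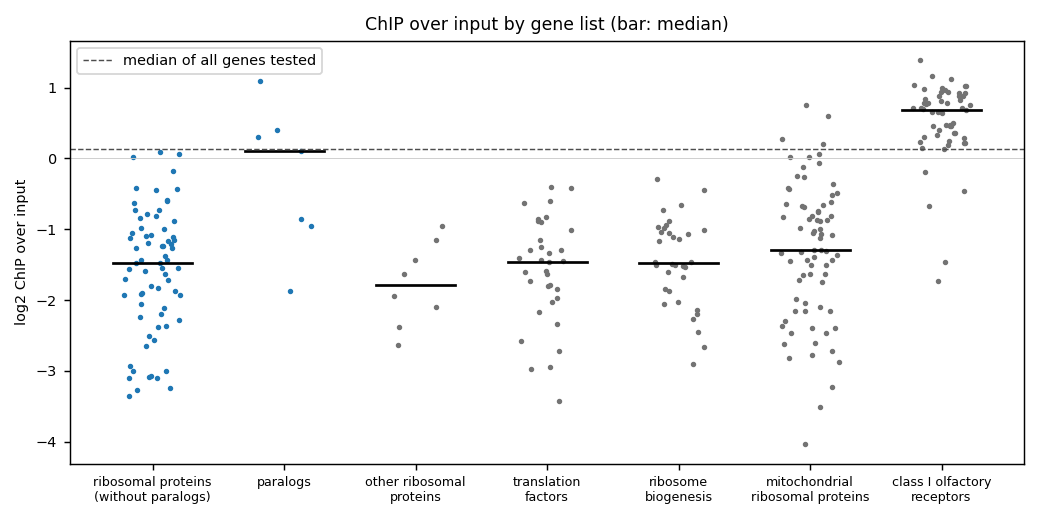
Each point is a gene, with its log2 ratio of ChIP over input from the fit of 15 libraries on the vertical axis, bars mark list medians and the dashed line is the median of all genes tested (0.13). The lists of the translation machinery have medians from −1.29 to −1.79, while the olfactory receptors have 0.69 and the 7 paralogs 0.11.

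The dip was present in each genotype and serum. Lower calls numbered 60 of 79 in wild type in 10% serum, where 27.3% of all genes were called lower, and 60 in wild type in 0.1% serum, where 23.9% were. In ΔLEO1 cells they numbered 65 in 0.1% serum (23.8% of all genes) and 56 in 10% serum (17.1% of all genes), the latter from 1 ChIP library. Median log2 ratios were −1.38, −1.38, −1.41 and −1.45 in that order. The summed reads of the 80 genes, as CPM of all reads over distinct autosomal windows without TMM scaling, were 1977 and 1977 in wild-type ChIP in 10% serum, against 3894 and 4119 in input. In 0.1% serum they were 1926 and 1759 against 3806 and 3810. In ΔLEO1 cells they were 1861 against 3530 and 4024 in 10% serum, and 1967 and 1751 against 3893 and 3866 in 0.1% serum. Mean ChIP divided by mean input was 49.4% in wild type and 49.3% in ΔLEO1 in 10% serum, and 48.4% and 47.9% in 0.1% serum. For ΔLEO1 in 10% serum this sets ChIP B against both inputs, while the log2 ratio given next uses input B only. Shares of a library total cannot show a shift common to all genes. The log2 ratios of these sums were −1.02 ± 0.06 (SD, n = 2), −1.05 ± 0.09 (n = 2), −1.11 (n = 1) and −1.06 ± 0.11 (n = 2) for wild type in 10% and 0.1% serum and ΔLEO1 in 10% and 0.1% serum. These are means over libraries of the same letter, which ran from −1.06 to −0.98, from −1.12 to −0.98 and from −1.14 to −0.99 in the groups with 2, so the groups overlapped, and the single ΔLEO1 value in 10% serum lay within the range of both groups in 0.1% serum.

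**Figure D4:**
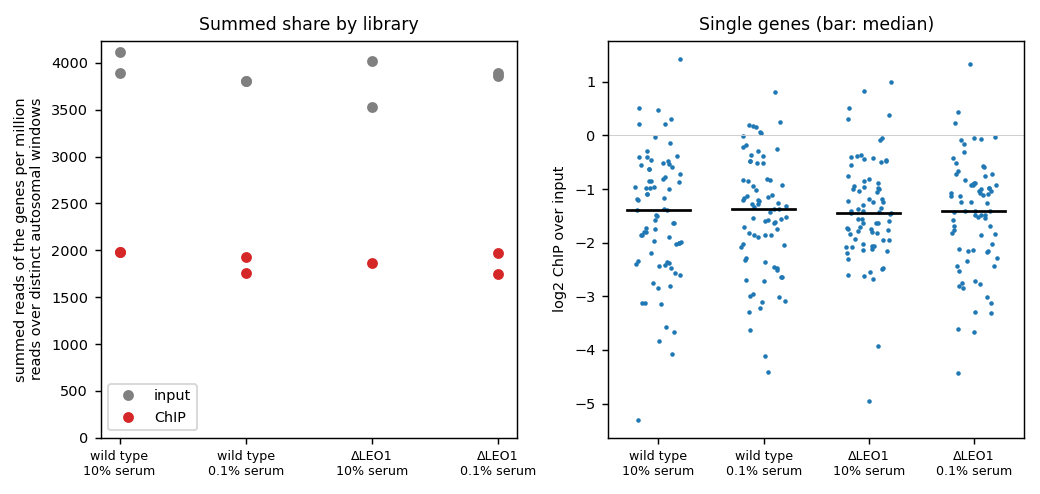
The left panel plots the summed CPM of the 80 genes, of all reads over distinct autosomal windows, in each library, and the right panel the log2 ratio of ChIP over input of 77 genes in each group, with bars at the median. In all 4 groups the ChIP points (1751 to 1977) lie near the middle between 0 and the inputs (3530 to 4119).

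To ask whether the mark at these genes differed between genotypes in quiescence, relative to other genes, ΔLEO1 and wild-type ChIP were compared in 0.1% serum. The scaling used here sets the typical gene near no change, so a shift common to all genes cannot be seen. The study reports that the mark is globally increased in quiescent mutant cells, after scaling to added fly chromatin. The comparison made here cannot test that increase. No ribosomal protein gene was called by edgeR (0 of 79) or by DESeq2 (0), where 0.182% of all genes were called by edgeR. The median log2 difference was 0.04 for the ribosomal protein genes and 0.00084 for all genes, with a median SE of 0.30 for a single gene, so that moderate differences at single genes were not detectable at this depth. An unadjusted p under 0.05 was found for 16 of 79 (20.3%), against 10.8% of all genes, and for 9 of 77 with non-overlapping windows. The smallest adjusted p was 0.11, at RPL9. RPL9 gave 1.31 and 1.13 CPM per window in wild-type and 2.09 and 2.58 in ΔLEO1 ChIP, without overlap, a log2 difference of 0.90 ± 0.23. RPL19 gave 0.553 and 1.77 against 2.13 and 2.37 (0.96 ± 0.32, adjusted p = 0.24), and RPL5, which with RPL11 binds MDM2, 2.23 and 1.71 against 3.60 and 2.67 (0.66 ± 0.22, adjusted p = 0.25). RPS3A went the other way, with 7.12 and 4.31 against 3.35 and 2.27 (−1.004 ± 0.29, adjusted p = 0.16). None of these 4 differences passed the test. Leaving out wild-type replicate B brought RPL19 past it (1.94, adjusted p = 0.032), and leaving out ΔLEO1 replicate A brought RPS23 past it (−2.02, adjusted p = 0.045). With the input difference taken off, 0 of 79 were called by edgeR and 0 by DESeq2, where 0.0052% of all genes were called, and 10 (12.7%) had an unadjusted p under 0.05, against 7.71% of all genes.

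In 10% serum, 2 of 79 ribosomal protein genes were called between ΔLEO1 and wild-type ChIP, where 0.135% of all genes were. Both calls rest on few fragments and 1 ΔLEO1 library. RPS20 gave 4.29 and 5.76 CPM per window in wild type and 1.10 in ΔLEO1, a log2 difference of −2.14 ± 0.37 (adjusted p = 0.020). In its single non-overlapping window these were 4 and 7 reads against 0. That window is centred 362 bp downstream of the start listed for most transcripts. It held less ChIP signal than the window at that start, 1.90 against 4.72 CPM. RPL10A gave 0 and 0 in wild type and 2.43 in ΔLEO1 (adjusted p = 0.025), which in its single non-overlapping window was 0 and 0 reads against 5, at least 2.21-fold higher against a floor of 3 reads per library. Neither was called with non-overlapping windows or with ChIP libraries alone, RPS20 was not called without wild-type 10% serum ChIP replicate B, and RPL10A was not called without replicate A or without B. RPLP2, at 0.349 and 0.378 in wild type and 1.58 in ΔLEO1 (1.95 ± 0.41, adjusted p = 0.057), was called by DESeq2, beside both others, where DESeq2 called 0.279% of all genes. With library sizes from the peak regions the count was also 2, but RPS20 was not called and RPLP2 was (1.99, adjusted p = 0.048).

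Serum was compared next. In wild-type cells, 0 of 79 genes were called by edgeR between 0.1% and 10% serum ChIP, where 0.0347% of all genes were called, and 12 (15.2%) had an unadjusted p under 0.05, against 9.99% of all genes. The median log2 difference was −0.11 for the ribosomal protein genes and −0.05 for all genes. RPL19 gave 3.35 and 3.13 CPM per window in 10% serum and 0.553 and 1.77 in 0.1% serum (−1.49 ± 0.31, adjusted p = 0.076). RPL13A, which is also known for a role in silencing inflammatory mRNAs, gave 5.72 and 5.36 and then 3.56 and 1.83 (−1.02 ± 0.23, adjusted p = 0.10). RPS25 gave 1.20 and 0.784 and then 0.205 and 0.251 (−1.79 ± 0.48, adjusted p = 0.17). In these genes the CPM values of the sera do not overlap, and the share of all genes with such a separation was not counted. In non-overlapping windows, RPS25 held 2 and 2 reads in 10% serum and 2 and 2 in 0.1% serum, so its difference was absent there. RPL19 held 11 and 12 and then 2 and 5, and RPL13A 25 and 26 and then 23 and 9. DESeq2 called 3 genes, RPL19 and RPL13A among them, and 0.156% of all genes. In edgeR RPL19 passed the test without wild-type 0.1% serum replicate B (−2.41, adjusted p = 0.0066) and RPL13A without replicate A (−1.53, adjusted p = 0.032). With the input difference taken off, 0 of 79 were called by edgeR and by DESeq2, where 0.0% of all genes were called by edgeR, and 5 (6.33%) had an unadjusted p under 0.05, against 9.45% of all genes. RPL19 passed the same test without wild-type 0.1% serum replicate B (−2.37, adjusted p = 0.040).

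In ΔLEO1 cells, RPS20 alone of 79 was called between the sera, where 0.0972% of all genes were called. It gave 1.10 CPM per window in the 1 library in 10% serum and 4.43 and 4.62 in 0.1% serum (1.99 ± 0.37, adjusted p = 0.031), and the 10% serum value is the one that also set its difference between genotypes. In its single non-overlapping window, downstream of the start listed for most transcripts, these were 0 reads against 8 and 4. The call was lost with non-overlapping windows, without either ΔLEO1 0.1% serum ChIP library and without either wild-type 0.1% serum input. For the interaction of genotype and serum, 0 of 79 genes were called by edgeR, where 0.0139% of all genes were, and 11 (13.9%) had an unadjusted p under 0.05, against 6.36% of all genes. DESeq2 called 3 in the interaction, RPS20 (2.16), RPLP2 (−2.76) and RPL10A (−6.52), where it called 0.0972% of all genes, and the last is a fitted value against a group at 0. All these comparisons share the ΔLEO1 10% serum library.

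Input libraries were compared between genotypes because fewer reads there would bear on both ChIP and the ratio. No gene was called by edgeR (0 of 79) or by DESeq2 (0), where 0.00347% of all genes were called, and 7 (8.86%) had an unadjusted p under 0.05, against 5.27% of all genes. The genes on the stretches of chromosomes 3 and 4 where earlier results of these data had shown fewer ΔLEO1 input reads were looked at by name. RPL34 (chr4:108619569-108623043) gave 5.02, 6.73, 6.10 and 6.69 CPM per window in wild-type inputs and 4.91, 4.81, 3.37 and 4.31 in ΔLEO1 inputs, which do not overlap (−0.50 ± 0.15, adjusted p = 0.85). RPS3A (chr4:151098624-151100873) gave 9.01, 8.99, 6.19 and 5.01 against 3.16, 4.91, 6.71 and 3.98 (−0.60 ± 0.19, adjusted p = 0.85). RPL14 (chr3:40456292-40459631) gave 7.15, 8.87, 7.21 and 7.84 against 4.46, 7.36, 5.95 and 5.57 (−0.40 ± 0.15, adjusted p = 0.91). RPL29 (chr3:51994814-51996895) gave 5.37, 7.66, 6.88 and 5.36 against 3.53, 3.68, 5.05 and 6.10 (−0.49 ± 0.22, adjusted p = 0.93). All 4 had lower means in ΔLEO1 inputs and none passed the test. Because the stretches were picked for fewer ΔLEO1 input reads in these same data, the lower means add no support. How many of all genes have inputs that do not overlap between genotypes was not counted. RPS3A, listed above as lower in ΔLEO1 ChIP in 0.1% serum, is 1 of them, and the part of its input reads in that difference was not tested.

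**Figure D5:**
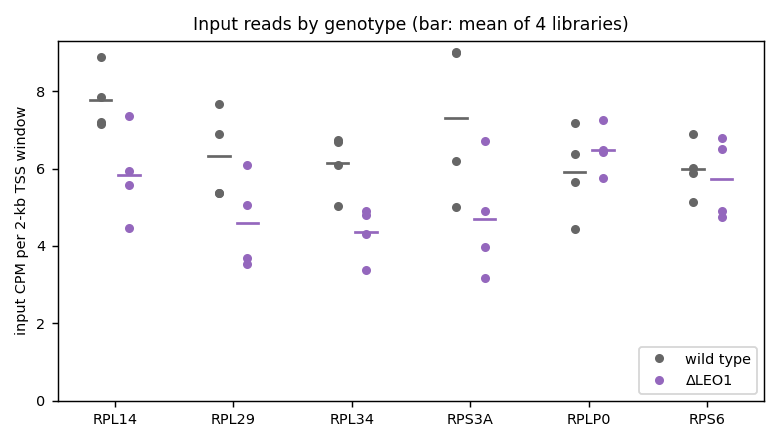
Points are input CPM per 2-kb TSS window in 4 wild-type (grey) and 4 ΔLEO1 (purple) libraries, with bars at the mean, for 4 genes on chromosomes 3 and 4 and for RPLP0 and RPS6. For RPL34 all ΔLEO1 points lie below all wild-type points, while the points overlap for RPS3A, RPL14, RPL29, RPLP0 and RPS6.

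Regions that the authors called as peaks were rare at autosomal genes in general, and 1 ribosomal protein gene is too few to set their share apart. Of the 80 genes, 1 (1.25%) had a window that overlapped a peak region by at least 1 bp, against 3.22% of all 58786 autosomal genes, 5.13% of the genes for mitochondrial ribosomal proteins and 12.3% of the class I olfactory receptor genes. The one gene was RPL22, with a region at chr1:6200165-6200868 annotated as promoter and start site, upstream of the start shown above and overlapping 4 of its 7 windows. It gave 5.58 CPM in ChIP (3.41 to 7.53 over 7 libraries) and 2.31 in input (1.56 to 3.11 over 8), with no overlap. The whole windows of RPL22, as given above, held as many ChIP as input reads. The region rests on 7 to 27 ChIP reads in a library.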

How the data were processed

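ChIP and input DNA of BJ-5ta cells were sequenced in 16 libraries, in 8 groups of 2 by label. The authors deposited raw read counts over 272902 TSS windows and over 16092 peak regions, with no scaling. The submitters' processing notes name bcl2fastq 2.20.0.422, STAR 2.7.10a, HOMER and the builds hg38 and dm6 (fly spike-in chromatin). The study scaled ChIP to the spike-in, but no fly window is in the tables, so a shift of the mark across all genes cannot be seen here. The handling of duplicate reads and of reads with several matches is not given in the sources used here, and both could alter counts at ribosomal protein genes, which have many pseudogene copies.

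Repeated windows (237274 distinct) were counted once and summed by gene. The alternative with 1 window per gene took the window listed for most transcripts or, on a tie, the one with the smallest coordinate. Non-overlapping windows were taken from the smallest coordinate upward. Depth was 1895572 to 7947289 reads per library without the failed one. In edgeR 4.0.16 (R 4.3.3), 15 libraries were fitted together with 1 coefficient per group, filterByExpr (minimum count 10), TMM scaling, a prior count of 2 and two-sided quasi-likelihood F-tests. P-values were Benjamini-Hochberg adjusted over 57638 genes and called under 0.05. Standard errors were derived from the F statistic. CPM per window divides a gene's CPM by its number of distinct windows. All 16 columns were mapped to libraries. The code was tested on simulated counts. Alternatives were DESeq2 1.42.0, other scalings, other windows, a replicate block, 16 libraries, ChIP libraries alone and leaving out each library. Named genes were the stalk genes, RPSA and RPS6, the 5 lowest and 5 highest ratios, the paralogs, the 4 smallest p-values in the genotype (0.1% serum) and wild-type serum comparisons, any called gene, genes on 3 stretches with fewer ΔLEO1 input reads, and genes with a peak region, some of which are not reported here. The genes and lists were chosen with earlier results of these data known. PCR copies were not marked by molecular identifiers, so floors allow for counting error alone. Figures were drawn with matplotlib from the same tables.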

Additional observations from a re-analysis of the deposited data

How the results depend on the processing

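The count of genes lower in ChIP than input over all groups (70) stayed between 67 and 78 under every alternative run, and the 4 counts by group stayed within 1.5 times of theirs. Calls between genotypes or sera were few and moved. With library sizes from the peak regions, 1 gene (RPL9) was called between genotypes in 0.1% serum, and with non-overlapping windows 1 other (RPL35A). In 10% serum the 2 calls fell to 0 with non-overlapping windows, 1 window per gene and ChIP libraries alone, and leaving out single libraries gave 0 to 2. The serum comparison in wild type rose from 0 to 3 in DESeq2, and single libraries gave 0 to 1. The serum comparison in ΔLEO1 fell from 1 to 0 with non-overlapping windows, 1 window per gene, 16 libraries and ChIP libraries alone, gave 2 in DESeq2, and 0 to 1 without single libraries. The interaction gave 1 with 16 libraries, 3 in DESeq2 and 0 to 1 without single libraries. Leaving out single libraries gave 0 to 1 between genotypes in 0.1% serum and for wild-type serum over input. The causes were not tested, beyond the fewer counts and samples that these settings use.

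The summed log2 ratios moved with the windows and the scaling and stayed negative. For wild type in 10% and 0.1% serum and ΔLEO1 in 10% and 0.1% serum they were −0.81, −0.81, −0.86 and −0.73 with non-overlapping windows, and −1.25, −1.28, −1.35 and −1.33 with TMM. With 1 window per gene they were −0.89 and −0.90 in wild type. Library sizes from the peak regions reversed RPL10L (−0.47), RPL22 (−1.56), RPL26L1 (−1.35), RPL39L (−1.22) and RPL3L (−1.50), by shifting all genes. One window per gene reversed RPL22 (−0.38), RPL39L (−0.0223) and RPL3L (−0.78). Of the other alternatives for 32 named values, 697 kept direction and side of the threshold, 30 lost the call and 9 gained it.

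The letters A and B did not pair the libraries: the differences A minus B correlated between groups at −0.053 to 0.127. The replicate block left 70 genes lower in ChIP, 2, 0, 1 and 0 called between genotypes in 10% and 0.1% serum, between sera in ΔLEO1 and in wild type, and 0 in the interaction. Adding ΔLEO1 10% serum ChIP replicate A to the summed ratios gives no value, since it holds 0 reads over these genes, and leaving out replicate B removes that group.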
